A study of Mus musculus with 180 samples.

Results

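Encorafenib, Refametinib and GDC-0994 are clinical kinase inhibitors (CKIs) directed at successive tiers of 1 kinase cascade, RAF, MEK and ERK. They were chosen here by their treatment labels, and make up 3 of the 58 CKIs and 9 of the 180 RNA-seq samples of the series. The study asked how CKIs alter the response of mouse macrophages to an inflammatory stimulus. All groups used here were bone marrow-derived macrophages (BMDMs), grown in culture from the marrow of wild type male C57/BL6 mice aged 6 to 8 weeks. The cells received DMSO, Encorafenib, Refametinib or GDC-0994 (written GDC0994 in the labels) for 1 h, and then 10 ng/ml of LPS, a bacterial membrane component that activates TLR4, for 2 h. Each CKI group held 3 samples, described by the study as independent biological replicates, and the DMSO group held 6, labelled as set 1 and set 2 with 3 samples each. Since LPS was given to all of these groups, DMSO included, every difference below is a difference between stimulated cells.

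In this cascade RAS recruits a RAF kinase, RAF phosphorylates MEK1 and MEK2, and MEK phosphorylates the ERK kinases, which act on kinases and transcription factors in the cytoplasm and the nucleus. In macrophages LPS reaches MEK mostly through another kinase, TPL2 (encoded by *Map3k8*), rather than through RAF. ERK activity induces immediate-early genes such as *Egr1* and *Fos* and also its own brakes, among them the DUSP phosphatases, the Sprouty proteins and the EGFR inhibitor MIG6 (encoded by *Errfi1*). Encorafenib competes with ATP for the RAF kinase domain, Refametinib binds MEK beside the ATP site, and GDC-0994 competes with ATP on ERK. The concentrations were set for each CKI from its binding affinity in kinobead assays, and not to a common dose. For GDC-0994 the kinase that set the dose was ERK itself, whereas Encorafenib was dosed for IRAK1 and Refametinib for MAPK10. Because the doses differ, the CKIs are set side by side below and are not compared with each other. All of them share the same 6 DMSO samples.

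The 9 CKI samples held between 9531991 and 11859242 normalized values in total and the DMSO samples between 9481416 and 11094387, where a normalized value is the authors' scaled and rounded number of exonic reads of a gene. All 14 macrophage markers examined had a mean over 10 in every group, led by *Lyz2* (68503 in DMSO) and *Csf1r* (24991), while *Lum* and *Tpsb2*, markers of fibroblasts and mast cells, were at 0 in all samples of these groups. The fibroblast gene *Col1a1* was low, at 11 to 98. Transcripts encoded by the mitochondrial genome took 0.759% to 1.94% of the normalized values in DMSO, 0.961% to 1.23% with Encorafenib and 0.794% to 1.14% with GDC-0994. With Refametinib they took 4.45%, 2.02% and 1.23%, so that only replicates 1 and 2 lay above all DMSO samples. The mean difference of 1.42 percentage points for Refametinib did not pass a two-sided exact permutation test (p = 0.0952, adjusted p = 0.286 over 3 CKIs). It was 0.474 without replicate 1 and 2.08 without replicate 3. The Refametinib libraries also had the highest mean total, 11406500 against 10258000 in DMSO (p = 0.0476, adjusted p = 0.143, two-sided exact permutation test). In bulk samples such as these, fewer cells of a type and less RNA per cell cannot be told apart.

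**Figure D1:**
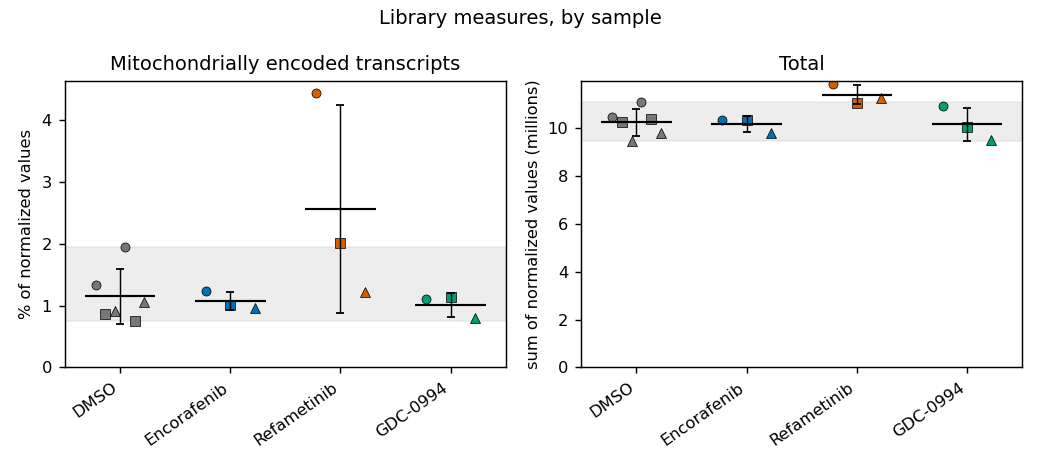
Share of mitochondrially encoded transcripts (left, % of normalized values) and total of normalized values (right) in each sample of DMSO and the CKIs. Symbols give the replicate number (circle 1, square 2, triangle 3), black bars the mean and SD, and the grey band the range of the 6 DMSO samples. Refametinib replicate 1 stands highest in the left panel at 4.45%.

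By limma with Benjamini-Hochberg adjustment over the 12714 genes tested, 0 genes (0.0%) passed an adjusted p of 0.05 with Encorafenib, 0 (0.0%) with Refametinib and 1 (0.00787%) with GDC-0994. With all 9 CKI samples against DMSO the count was 0 (0.0%). At an unadjusted p under 0.05, limma gave 475 genes (3.74%) for Encorafenib, 3208 (25.2%) for Refametinib, 533 (4.19%) for GDC-0994 and 1258 (9.89%) for the 3 together. The shares for Encorafenib and GDC-0994 lie below the 5% that this threshold admits by itself. The standard error of a gene's log2 fold change had a median of 0.217 for a single CKI, so that changes well under 1 on the log2 scale were mostly not detectable.

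The count for Refametinib depended on how the replicates were handled. Samples carrying the same replicate number deviated together in Refametinib, GDC-0994 and DMSO, and when the number entered the fit as a block, 1588 genes passed with Refametinib, 1269 higher (9.98% of genes) and 319 lower (2.51%). For GDC-0994 the paired count stayed at 1, and for the 3 together it was 1, *Prmt1*, an arginine methyltransferase (log2 fold change 0.38, adjusted p = 0.0233 with the block). With the block and without Refametinib replicate 1, which had the mitochondrial share of 4.45%, the count was 0. With the 2 samples left, the log2 fold change of *H2-Ab1* was 1.16 against 1.07 with all 3 (adjusted p = 0.0649). That of *Polr2g* was 0.91 against 0.81 (adjusted p = 0.0616) and that of *Cxcl2* −0.65 against −0.68 (adjusted p = 0.0763). The median of all genes was 0.12 against 0.13. Some gene lists moved more. Leaving out Refametinib replicate 1 without the block took the median of the mitochondrially encoded genes from 1.32 to 0.83. The median of the neutrophil and granulocyte progenitor markers went from 1.19 to 0.87, and that of the interferon-stimulated genes from 0.54 to 0.58. The count was also 0 when the mitochondrial share was added to the block as a covariate. Without DMSO set 2 replicate 1, the DMSO library with the highest mitochondrial share, 1146 genes passed even without the block and 2945 with it.

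The direction of these calls depended on the scaling too. The median log2 fold change of all genes was 0.13 for Refametinib under the authors' scaling, against 0.02 for Encorafenib and 0.00 for GDC-0994. A further scaling by the median of ratios brought the Refametinib median to 0.01 and turned the paired calls from 79.9% higher to 40.6% higher (665 higher, 971 lower). Under this scaling and without the block, 3 genes passed with Refametinib, all lower, namely *Alas1*, *Cxcl2* and *Rgcc*. Paired calls for Refametinib are therefore given below beside the values without the block.

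Several of the kinases aimed at were transcribed. Per kilobase of exon, DMSO samples had mean normalized values of 92.99 for *Araf* and 17.12 for *Braf*, of 1245 for *Map2k1* (MEK1) and 148.1 for *Map2k2* (MEK2), and of 182.2 for *Mapk3* (ERK1). *Map3k8*, which encodes TPL2, stood at 874.5 on this scale. Of these genes none passed the test with any CKI. The log2 fold change closest to passing was that of *Map2k1* with Refametinib at −0.48 ± 0.22 (SE), with an adjusted p of 0.166, or 0.0466 with the block. Of the kinases that set the doses, *Mapk10* was listed at 0 in all samples of these groups. *Irak1* had values of 113, 68 and 102 with Refametinib against 34 to 66 in DMSO, all above DMSO, with an adjusted p of 0.119, or 0.0419 with the block. With Encorafenib *Irak1* stood at 44, 73 and 41, within or just above the DMSO range.

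The genes most often used to read ERK output were largely within the DMSO range. Of 95 genes in 6 lists of the ERK pathway 85 were tested and 0 passed with any CKI in the limma fit. At an unadjusted p under 0.05, 3 were higher and 1 lower with Encorafenib, 15 higher and 6 lower with Refametinib, and 0 higher and 1 lower with GDC-0994. Over all genes the shares at this threshold in either direction were 3.74%, 25.2% and 4.19%. Taken over both directions, the list counts are close to these shares or below them. By direction, 2721 of all 12714 genes were higher with Refametinib and 487 lower. The 15 higher of 85 are thus a smaller share than over all genes, and the 6 lower a larger one. Whether either differs from the background was not tested. Among the 10 MAPK pathway activity genes 6 were tested, and *Spry4*, *Etv4*, *Epha2* and *Epha4* had means under 10. The median log2 fold change of the 6 was 0.14 with Encorafenib, −0.35 with Refametinib and 0.15 with GDC-0994, beside medians over all genes of 0.02, 0.13 and 0.00. With Refametinib 5 of the 6 were below 0, also after the further scaling, with a median then of −0.47.

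*Phlda1* (chr10:111506286-111508649), a pleckstrin homology-like protein induced by ERK signaling, gave the clearest values of these 6. Its normalized values were 127, 109 and 108 with Refametinib, 239, 199 and 148 with Encorafenib and 167, 156 and 200 with GDC-0994, against a lowest value of 170, a median of 226.5 and a highest of 267 in DMSO. Refametinib samples all lay below DMSO, whereas those of the other CKIs overlapped with it. The log2 fold change of *Phlda1* with Refametinib was −0.92 ± 0.30 (SE; adjusted p = 0.115, or 0.0391 with the block). *Etv5*, an ETS transcription factor downstream of ERK, was at 445, 490 and 619 with Refametinib against 452 to 1097 in DMSO. Its log2 fold change of −0.61 ± 0.33 had an adjusted p of 0.222, or 0.035 with the block. *Phlda1* and *Etv5* were the members of the activity list that passed with the block.

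Over all 6 lists the paired fit called 11 of the 85 genes with Refametinib and 0 with GDC-0994. The 4 lower genes were *Phlda1*, *Etv5*, *Map2k1* and *Rps6ka4*, the last encoding MSK2, a kinase activated by ERK and p38 (log2 fold change −0.44). The 7 higher genes were *Srf*, the serum response factor that binds immediate-early promoters (0.78), *Bcl6*, a transcriptional repressor (0.87), *Rps6ka3*, the ERK-activated kinase RSK2 (0.80), *Grb2*, an adaptor upstream of RAS (0.73), *Nf1*, a RAS GTPase activator (0.64), *Mknk2*, an ERK-activated kinase (0.57), and *Dusp3*, a phosphatase of ERK and JNK (0.49). Of these 8 genes, *Rps6ka4* and the higher ones, the adjusted p lay between 0.115 (*Srf*) and 0.194 (*Rps6ka4*) without the block and between 0.0296 (*Dusp3*) and 0.045 (*Rps6ka4*) with it. These are the same samples in which 9.98% of all genes were called higher and 2.51% lower. *Nf1* overlaps *Evi2*, *Evi2a* and *Evi2b* on the other strand, whose mean values are 1525, 2186 and 1212. Part of the *Nf1* reads could belong to these genes.

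The other members, *Dusp4*, *Dusp6*, *Ccnd1* and *Spry2*, overlapped with DMSO under every CKI. For *Dusp6*, the cytoplasmic ERK phosphatase, values were 18, 41 and 37 with Encorafenib, 29, 30 and 19 with Refametinib and 34, 52 and 27 with GDC-0994, against 24 to 50 in DMSO. The 95% intervals of its log2 fold change ran from −0.64 to 0.38 with Encorafenib, from −0.88 to 0.14 with Refametinib and from −0.39 to 0.63 with GDC-0994. The immediate-early factor *Egr1* ranged from 31 to 148 in DMSO, and all 3 CKIs had samples inside this range (87, 135 and 55 with Encorafenib, 55, 63 and 29 with Refametinib, 69, 54 and 90 with GDC-0994). Its intervals were wide, from −0.80 to 1.23, from −1.68 to 0.35 and from −1.11 to 0.92 in the same order, and they reach below −1 with Refametinib and GDC-0994.

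Pimasertib, another MEK inhibitor of the series given at its own concentration, was read against the same 6 DMSO samples. With Pimasertib *Egr1* was at 6, 6 and 5, *Phlda1* at 79, 34 and 51 and *Dusp6* at 17, 9 and 18. Each of these was below all DMSO samples, and the log2 fold changes were −3.50 ± 0.51, −2.05 ± 0.30 and −1.18 ± 0.26 (adjusted p = 2.31e-07, 2.38e-07 and 0.000958, limma). Over all genes 2031 passed with Pimasertib as higher and 722 as lower. Mitochondrially encoded transcripts took 4.29%, 3.24% and 3.45% of the Pimasertib libraries, all above the highest DMSO sample. The part of this share in the Pimasertib calls was not tested, and a fit with it as a covariate is not reported here for Pimasertib. With Selumetinib (MEK) and Ulixertinib (ERK) 0 and 2 genes passed. Their *Egr1* values were 81, 88 and 60 with Selumetinib and 94, 32 and 21 with Ulixertinib.

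**Figure D2:**
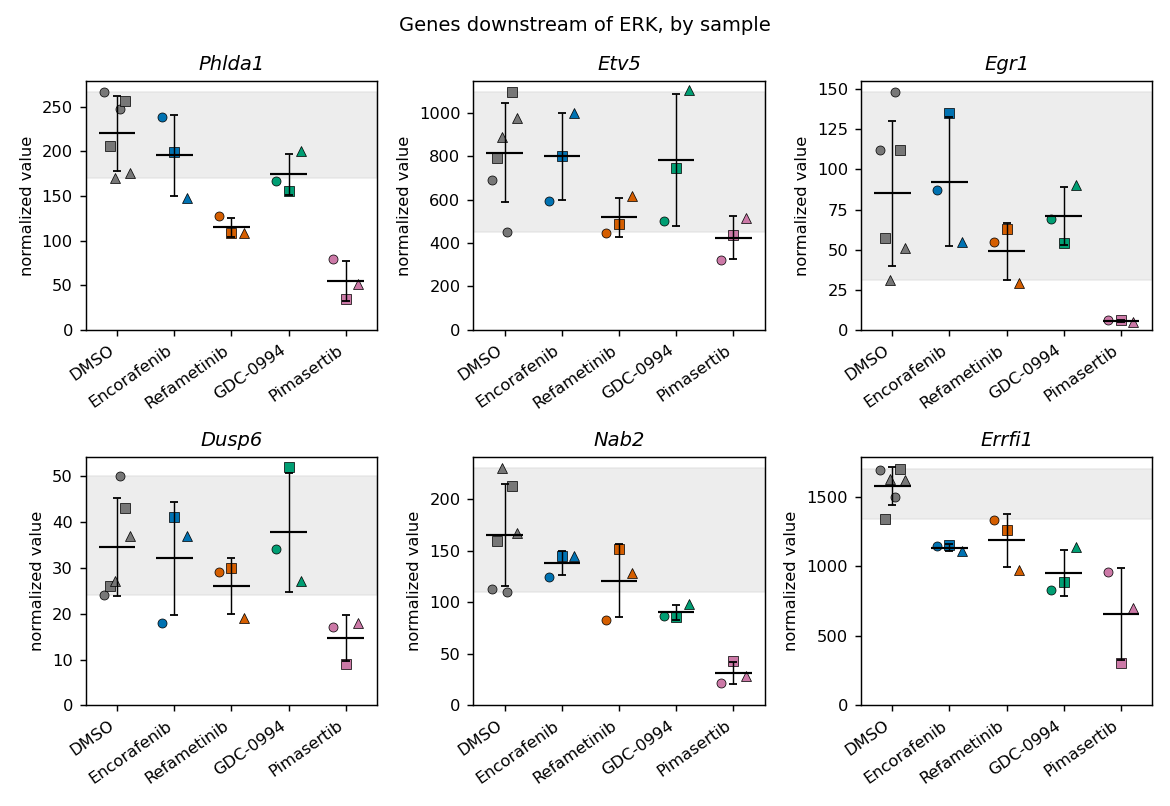
Normalized values of 6 genes downstream of ERK in each sample of DMSO, Encorafenib, Refametinib, GDC-0994 and, for reference, the MEK inhibitor Pimasertib, with axes from 0. Symbols give the replicate number (circle 1, square 2, triangle 3), black bars the mean and SD, and the grey band the DMSO range. *Phlda1* lies below the band with Refametinib, *Nab2* with GDC-0994 and *Errfi1* with all 3 CKIs, whereas *Egr1* overlaps with the band under all 3 and is at 5 to 6 with Pimasertib.

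With Encorafenib, genes with all 3 samples above all 6 of DMSO numbered 161 (1.27% of genes), and those with all below numbered 64 (0.503%). Whether these numbers differ from what chance gives was not tested. Apart from list members, the naming rule picks genes only among those without overlap. Lack of overlap in a gene so named is thus a condition of its choice and no separate result. None of the genes named in this paragraph passed the test. *Fosb*, an immediate-early AP-1 subunit and ERK target, was at 61, 100 and 62 against 17 to 40 in DMSO (median 22.5), a log2 fold change of 1.55 ± 0.44 (adjusted p = 0.664, limma), while with Refametinib it was at 10, 25 and 14 and with GDC-0994 at 34, 51 and 30. *Actn1*, the actin crosslinker alpha-actinin-1, had values of 169, 168 and 201 against 107 to 149. *Slc3a2*, the heavy chain of the CD98 amino acid transporter, had values of 5989, 6378 and 5485 against 3140 to 4938. The other genes with the smallest p in this direction, *Jkamp*, *Leng9* and *Mid1ip1*, had log2 fold changes of 0.47, 0.68 and 0.37 and the same adjusted p of 0.664.

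On the lower side *Fam120b*, a coactivator of PPARgamma, came nearest to passing with Encorafenib. It was at 141, 181 and 147 against 193 to 244 in DMSO (median 224.5), with no overlap, as the naming rule requires. Its log2 fold change was −0.50 ± 0.11, with an adjusted p of 0.0935 by limma. Without Encorafenib replicate 2, or without DMSO set 2 replicate 3, it passed (adjusted p = 0.0265 and 0.0385), while leaving out each of the other samples gave an adjusted p of 0.0923 to 1. *Cyp51*, the lanosterol demethylase of cholesterol synthesis, was at 913, 879 and 989 against 999 to 1280, with a log2 fold change of −0.37 ± 0.12 and an adjusted p of 1. Of the 22 sterol synthesis genes 17 were below 0 with Encorafenib and 18 with GDC-0994, with medians of −0.14 and −0.11, and 0 of them passed. With Refametinib the median was 0.11. The remaining genes of this side were *Rell1*, *Rffl* and *Fbxw11*, with log2 fold changes of −0.47, −0.47 and −0.38. *Rffl* overlaps *Lig3* on the other strand, so its reads could belong to either gene.

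With Refametinib, genes lying above all DMSO samples numbered 1062 (8.35%) and those below all of them 206 (1.62%). *Cxcl2* (chr5:90903899-90905938), which encodes a neutrophil-attracting chemokine, was among the genes of the smallest p in the lower direction, and *F3* (chr3:121723537-121735052), which encodes tissue factor, the starter of the extrinsic clotting cascade, had the lowest log2 fold change of the paired calls that the naming rule selects. The 250 bases before each of these genes on GRCm38.p6 (mm10), taken from RefSeq and both on the plus strand, are shown because the regulation of both is known to involve NF-kB and, for *F3*, AP-1, a factor that ERK feeds into. Capitals mark matches, on either strand, to the NF-kB letters, which are GGGA, then 4 bases of any kind, then CC, and to the AP-1 letters TGANTCA.

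*Cxcl2*, chr5:90903649-90903898: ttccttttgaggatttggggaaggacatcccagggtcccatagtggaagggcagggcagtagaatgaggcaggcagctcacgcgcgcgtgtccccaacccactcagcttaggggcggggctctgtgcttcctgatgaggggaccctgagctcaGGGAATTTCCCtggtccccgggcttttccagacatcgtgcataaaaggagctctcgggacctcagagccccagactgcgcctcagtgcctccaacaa

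*F3*, chr3:121723287-121723536: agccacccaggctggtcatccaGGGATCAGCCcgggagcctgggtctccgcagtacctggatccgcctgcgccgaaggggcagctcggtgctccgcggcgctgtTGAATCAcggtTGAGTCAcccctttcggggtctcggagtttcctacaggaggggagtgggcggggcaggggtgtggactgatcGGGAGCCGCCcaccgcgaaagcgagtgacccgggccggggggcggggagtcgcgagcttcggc

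In the window of *Cxcl2* the NF-kB letters match on both strands, at overlapping places that begin 97 and 96 bases before the start of the gene, and the AP-1 letters do not occur. The window of *F3* holds the NF-kB letters at 228 and 63 bases and the AP-1 letters at 146 and 135 bases before the start, and no NF-kB match overlaps an AP-1 match there. Of all 32851 windows of this length 17.6% hold the NF-kB letters and 6.75% the AP-1 letters. These matches are descriptions of the letters, and no binding was measured here. The marked places were not compared with the sites known for these genes, and a site spelled otherwise would stand unmarked.

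*Cxcl2* had normalized values of 916, 1057 and 1108 with Refametinib against a lowest of 1328, a median of 1734 and a highest of 1842 in DMSO. The groups did not overlap, as the naming rule requires, and the log2 fold change was −0.68 ± 0.17 (SE; adjusted p = 0.115 by limma, 0.0263 with the block). With Encorafenib it was at 1458, 1647 and 1736 and with GDC-0994 at 1541, 1583 and 1342, all within the DMSO range. Its neighbour *Cxcl3* was at 289, 358 and 378 with Refametinib against 313 to 607 in DMSO, with a log2 fold change of −0.53 ± 0.20 (adjusted p = 0.123, or 0.0263 with the block), and the related *Cxcl1* at 516, 637 and 734 against 622 to 786. Of the 16 LPS-induced chemokine genes the paired fit called 2 lower and 0 higher under the authors' scaling, *Cxcl2* and *Cxcl3*, and 4 lower after the further scaling, while the median of the list was 0.37 with Refametinib. Over all genes the paired fit called 2.51% lower under the authors' scaling, and 971 of 12714 lower after the further scaling.

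*F3* was at 49, 72 and 51 with Refametinib against 85 to 151 in DMSO (median 116.5), with no overlap, as the naming rule requires. Its log2 fold change was −1.05 ± 0.32 (adjusted p = 0.115 by limma, 0.0354 with the block). Encorafenib samples of *F3* were at 125, 65 and 81 and GDC-0994 samples at 117, 119 and 60, each with at least 1 sample below DMSO. *Alas1*, the rate-limiting enzyme of heme synthesis, had the smallest p among lower genes, with 668, 717 and 750 against 819 to 976 and a log2 fold change of −0.33 ± 0.08 (adjusted p = 0.115, or 0.0263 with the block). *Rgcc*, a cell cycle regulator, was at 75, 96 and 75 against 109 to 176, and *Clcf1*, an IL-6 family cytokine, at 75, 65 and 53 against 81 to 134. Their log2 fold changes were −0.77 ± 0.18 and −0.74 ± 0.19 (adjusted p = 0.115 for both, or 0.0263 with the block). *Clcf1* shares its region with *Gm45928* on the same strand, which can take part of its reads. *Bcar3*, *Traf5*, *Poc5* and *Ubxn2a* complete the lower genes named from the paired fit, with log2 fold changes of −0.87, −0.84, −0.78 and −0.72 (adjusted p = 0.115 for each by limma, and 0.0263, 0.035, 0.0263 and 0.0263 with the block).

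On the higher side Refametinib samples lay above DMSO for 2 MHC class II genes, which encode the proteins that present antigen to helper T cells. *H2-Ab1* was at 2023, 1916 and 2504 with Refametinib against 700 to 1530 in DMSO (median 1027), and *H2-Eb1* at 1368, 896 and 1631 against 395 to 846 (median 515.5). Neither gene overlapped with DMSO, as the naming rule requires, and their log2 fold changes were 1.07 ± 0.27 and 1.21 ± 0.32 (adjusted p = 0.115 for both by limma, 0.0263 and 0.0299 with the block). *Polr2g*, a subunit of RNA polymerase II, was at 520, 574 and 615 against 258 to 411, with a log2 fold change of 0.81 ± 0.20 and an adjusted p of 0.115 (0.0263 with the block). *Zcchc17*, *Sik3* and *Ccdc189* were the other genes with the smallest p, at log2 fold changes of 0.60, 0.86 and 0.56, of which *Zcchc17* and *Ccdc189* overlap *Fabp3* and *Phkg2* on the other strand. The largest paired calls included the myeloid receptors *Cd300e* (log2 fold change 1.35) and *Pilra* (1.26) and the monocyte surface gene *Ly6c2* (1.22), with an adjusted p of 0.115 for each by limma and of 0.0309, 0.0296 and 0.0395 with the block. Over the alternatives their log2 fold changes ran from 0.59 to 1.59, from 0.58 to 1.42 and from 0.35 to 1.47, with the lowest value of each under the block with the mitochondrial share.

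Other lists moved with Refametinib at the same time. All 8 tested markers of neutrophils and granulocyte progenitors, of 10, were above 0, with a median log2 fold change of 1.19 and a range of 0.59 to 1.39. Without Refametinib replicate 1 their median was 0.87. The paired fit called 5 of the 8 higher, beside 9.98% of all genes, and 3 after the further scaling, beside 665 of 12714 genes. The summed level of the 10 markers was 868 to 2316 with Refametinib against 303 to 1016 in DMSO, 387 to 646 with Encorafenib and 253 to 764 with GDC-0994, and *Ly6g*, a defining marker of neutrophils, was at most 1 in every sample of these groups. *S100a8* was at 798, 258 and 244 against 100 to 307. All 13 mitochondrially encoded genes were above 0, with a median of 1.32, or 0.83 without Refametinib replicate 1. The 14 macrophage markers had a median of 0.52, and 12 of them were above 0. What part the mitochondrial share and these markers have in the higher genes was not tested. With the mitochondrial share as a covariate beside the block the log2 fold changes were 0.79 for *H2-Ab1* and 0.66 for *H2-Eb1*, with adjusted p of 0.419 and 0.516, and for *Cxcl2* the log2 fold change was −0.67, with an adjusted p of 0.364.

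The interferon-stimulated genes, which macrophages induce after LPS through secreted interferon beta, had a median log2 fold change of 0.54 with Refametinib over the 40 tested, of −0.15 with Encorafenib and of −0.07 with GDC-0994. In the limma fit 0 of the 40 passed with any CKI, and at an unadjusted p under 0.05 the counts were 11 higher with Refametinib, where 2721 of all 12714 genes were higher, and 0 with the others. The paired fit called 1 of the 40 with Refametinib, *Rtp4* (log2 fold change 0.95, adjusted p = 0.128 without the block and 0.0359 with it). *Ifnb1* itself was at 208, 167 and 207 with Refametinib, 152, 216 and 174 with Encorafenib and 195, 173 and 79 with GDC-0994, against 75 to 262 in DMSO (median 92.5). The 262, in DMSO set 2 replicate 1, stood far from the other DMSO samples. Over the alternatives the log2 fold change of *Ifnb1* ran from 0.18 to 1.06 with Refametinib (lowest adjusted p = 0.0364, limma). With Encorafenib it ran from 0.56 to 0.95 (lowest adjusted p = 0.452, limma). The cytokine *Tnf* was at 5716, 7017 and 8497 with Encorafenib, at 6547, 6636 and 9879 with Refametinib and at 9156, 6880 and 3741 with GDC-0994, against 6668 to 8932 in DMSO. Of the 16 cytokine genes tested, *Tnf* and *Il10* included, 0 passed with any CKI without the block, and *Clcf1*, given above, passed as lower with Refametinib with it. The list had medians of −0.10, 0.34 and −0.09 for Encorafenib, Refametinib and GDC-0994.

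**Figure D3:**
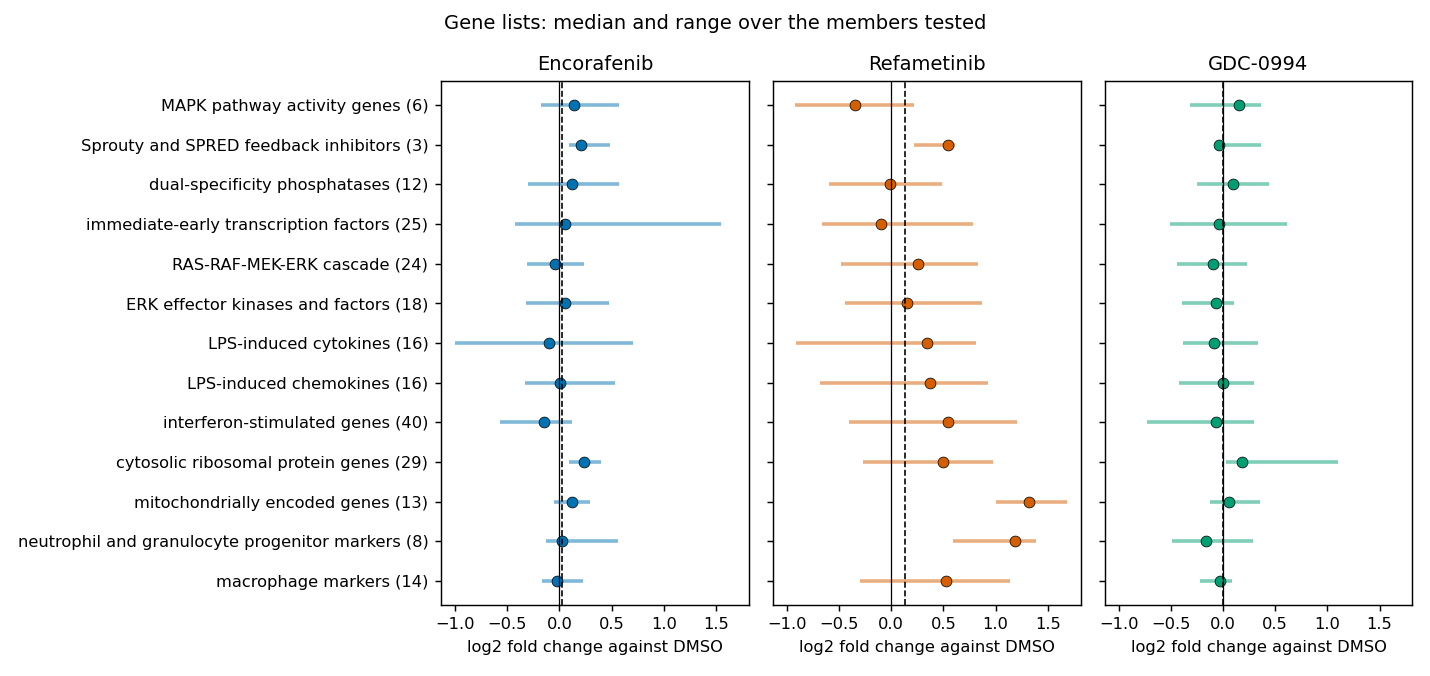
Log2 fold changes against DMSO of 13 gene lists for Encorafenib, Refametinib and GDC-0994 under the authors' scaling. Points are the median over the tested members of a list, whose number stands in brackets, lines run from the lowest to the highest member, and the dashed line is the median of all 12714 genes. The mitochondrially encoded genes (median 1.32) and the neutrophil markers (1.19) lie furthest right with Refametinib, and the MAPK pathway activity genes lie at −0.35.

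*Sertad2* (chr11:20543166-20653023), a transcriptional coregulator of the SERTA domain family, was the gene that passed with GDC-0994. Its normalized values were 1045, 968 and 946 with GDC-0994 against a lowest of 1266, a median of 1365.5 and a highest of 1779 in DMSO. The groups did not overlap, as the naming rule requires, and *Sertad2* fell by 0.55 ± 0.11 (SE) on the log2 scale (adjusted p = 0.0158 by limma, 0.00403 with the block). With Encorafenib it was at 1275, 1147 and 1198 and with Refametinib at 1135, 1316 and 1389. Leaving out any 1 of the 3 GDC-0994 samples, DMSO set 1 replicate 2 or DMSO set 2 replicate 2 took the count of genes passing from 1 to 0, with an adjusted p for *Sertad2* of 0.0727 to 0.457.

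Genes with all GDC-0994 samples above all DMSO samples numbered 147 (1.16%) and those below numbered 80 (0.629%). Apart from *Sertad2* none of the genes in this paragraph passed. *Nab2*, a corepressor of EGR factors that is itself induced by EGR1, was at 87, 86 and 99 with GDC-0994 against 110 to 231 in DMSO (median 163.5), with a log2 fold change of −0.81 ± 0.23 (adjusted p = 0.725 by limma, 0.0695 with the block). Encorafenib gave 125, 145 and 145 and Refametinib 83, 152 and 129 for *Nab2*. The gene overlaps *Stat6* on the other strand, whose mean value is 2055, so part of its reads could belong to *Stat6*. *Map3k11*, the mixed lineage kinase MLK3, was at 498, 545 and 639 against 701 to 1444, and *Fam20c*, a kinase of secreted proteins, at 1102, 1069 and 1188 against 1492 to 2984. Their log2 fold changes were −0.91 ± 0.25 and −0.84 ± 0.22 (adjusted p = 0.725 and 0.399 by limma, 0.0695 for both with the block). *Tspyl1* and *Zfp281* were at −0.77 and −0.65.

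The genes with the smallest p on the higher side with GDC-0994 were histone H4 genes (*H4c11*, *H4c12*) and genes of ribosomal proteins (*Rps26*, *Rpl13a*), with *Gm7392* beside them. *H4c11* was at 138, 156 and 186 with GDC-0994, 117, 166 and 129 with Encorafenib and 128, 117 and 116 with Refametinib, against 69 to 103 in DMSO. Its log2 fold change with GDC-0994 was 0.82 ± 0.21 (adjusted p = 0.399). Histone H4 genes are near-identical copies of each other, and ribosomal protein genes have many processed copies, so that the assignment of their reads is uncertain.

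Across all 9 samples, 24 genes (0.189%) lay above every DMSO sample and 4 (0.0315%) below. The limma test called 0 of them, with a lowest adjusted p of 0.203. The 4 lower genes were *Errfi1*, *Bcl10*, *Ctso* and *Rab5a*. *Errfi1* (chr4:150853796-150868889), the ERK-induced inhibitor of EGFR signaling named above, was at 1142, 1154 and 1106 with Encorafenib, 1329, 1259 and 971 with Refametinib and 826, 884 and 1140 with GDC-0994, against a lowest of 1338, a median of 1621.5 and a highest of 1699 in DMSO. The log2 fold changes were −0.47 ± 0.27, −0.42 ± 0.27 and −0.74 ± 0.27, and −0.54 ± 0.20 for the 3 together (adjusted p = 0.359). Replicate 1 of Refametinib lay only just below the lowest DMSO sample. With Pimasertib *Errfi1* was at 959, 303 and 700, also below DMSO (log2 fold change −1.42 ± 0.27, adjusted p = 0.000116), while with Selumetinib it was at 1431, 1559 and 1434, inside the DMSO range.

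*Bcl10* (chr3:145924262-145934366), an adaptor that carries signals to NF-kB, varied little in DMSO, between 2937 and 3174 with a median of 3015. It was at 2818, 2550 and 2714 with Encorafenib, 2351, 2437 and 2485 with Refametinib and 2537, 2793 and 2553 with GDC-0994. The log2 fold changes of *Bcl10* were −0.17 ± 0.08, −0.32 ± 0.08 and −0.21 ± 0.08, and −0.23 ± 0.06 for the 3 together (adjusted p = 0.253, or 0.0921 with the block). *Ctso*, a lysosomal cysteine protease, and *Rab5a*, a GTPase of early endosomes, had log2 fold changes of −0.21 and −0.26 for the 3 together. For *Rab5a* the highest DMSO value of 630 stood far from the other DMSO samples.

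On the higher side the smallest p of the 3 together belonged to the ribosomal protein genes *Rps26* and *Rpl28*. *Rps26* was at 6683, 6483 and 5685 with Encorafenib, 6450, 6348 and 6111 with Refametinib and 6625, 5785 and 6684 with GDC-0994, against 4747 to 5405 in DMSO (median 4983). No sample overlapped with DMSO, as the naming rule requires. The log2 fold changes were 0.31 ± 0.10, 0.32 ± 0.10 and 0.33 ± 0.10, with 0.32 ± 0.07 for the 3 together (adjusted p = 0.203). Of the 30 ribosomal protein genes examined 29 were tested, and all 29 were above 0 with Encorafenib and with GDC-0994 and 26 with Refametinib. Their medians were 0.24, 0.50 and 0.18 for Encorafenib, Refametinib and GDC-0994, and 0.32 for the 3 together, beside medians over all genes of 0.02, 0.13, 0.00 and 0.05. After the further scaling the medians stayed above 0, at 0.22, 0.37 and 0.17. The limma fit called 0 of the 29 with any CKI, with 7, 24 and 3 at an unadjusted p under 0.05, where the shares of all genes were 3.74%, 25.2% and 4.19%. The paired fit called 20 higher with Refametinib, beside 9.98% of all genes, or 10 after the further scaling. *H4c11*, *Gm7392* and *H4c17* were the other genes with the smallest p, with log2 fold changes of 0.61, 0.37 and 0.56 for the 3 together.

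**Figure D4:**
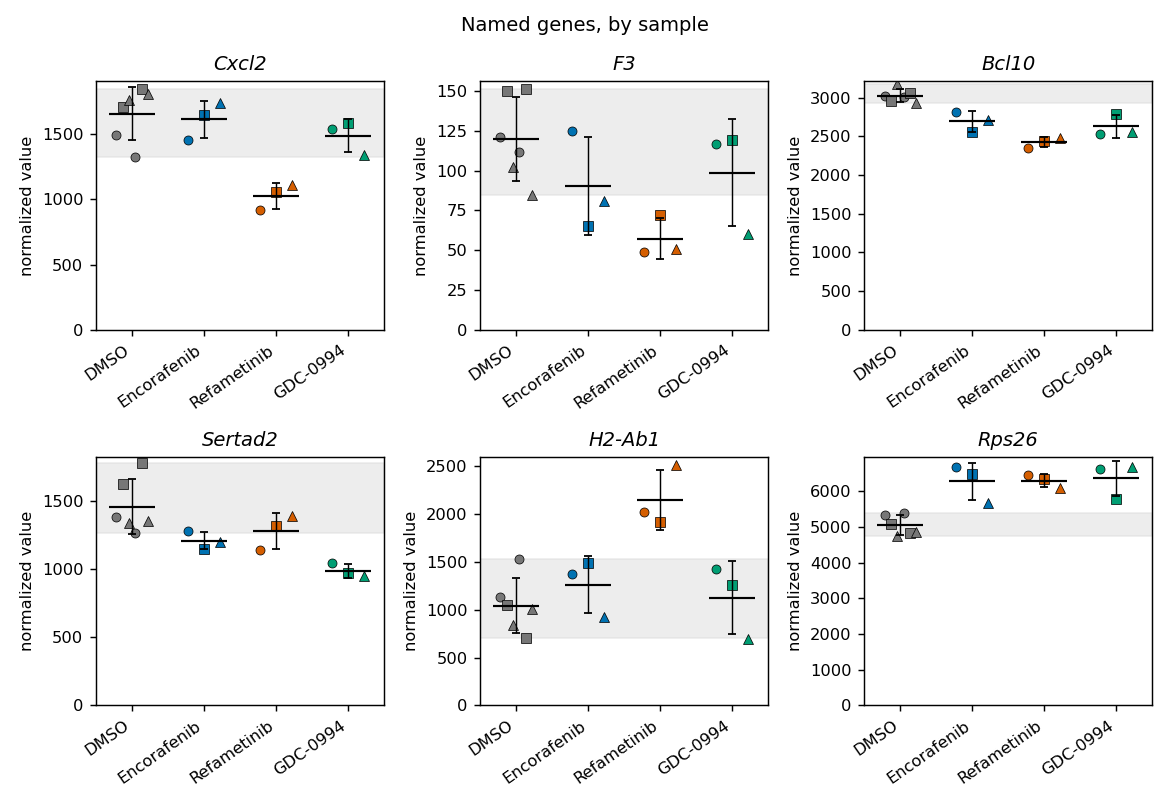
Normalized values of 6 genes named in the text in each sample of DMSO, Encorafenib, Refametinib and GDC-0994, with axes from 0, symbols for the replicate number (circle 1, square 2, triangle 3), black bars for the mean and SD, and a grey band for the DMSO range. *Cxcl2* and *F3* lie below the band and *H2-Ab1* above it with all Refametinib samples, *Sertad2* lies below it with all GDC-0994 samples, and *Bcl10* and *Rps26* lie outside it with all 9 samples. These 6 genes were picked under a rule that requires such a lack of overlap.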

How the data were processed

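Polyadenylated RNA of LPS-stimulated BMDMs was amplified by SMART-seq2 and tagmented with Tn5, which does not mark the strand, and sequenced. Per the labels and methods, the authors aligned reads to mm10 with TopHat2 2.1.1, removed reads in blacklisted regions with bedtools 2.29.2, counted reads per RefSeq gene with R packages, and tested with DESeq2 (R 3.6.2). The deposited values are the authors' score per gene, read counts scaled on invariant genes and rounded to whole numbers, and not raw counts, so that a count test could not be applied. The original read depth behind each library is not given by these scaled totals, and no counting intervals are printed.

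Here the 12714 genes with a mean of at least 10 over all samples were tested on log2(value + 1) with limma 3.58.1 (R 4.3.3), with a variance trend, all 59 groups in the fit and Benjamini-Hochberg adjustment over all genes at 0.05. Fold changes are therefore on the log2(value + 1) scale, which understates those of low genes. SEs and 95% intervals come from that fit (126.4 degrees of freedom). Each CKI, and the 3 as an equally weighted mean, was set against the 6 DMSO samples, and 0 genes differed between the DMSO sets (310 at an unadjusted p under 0.05, limma). Shares and totals were compared by exact permutation tests. These ran in SciPy 1.17.1 under Python 3.11.15. The fit was tested on simulated data.

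Genes were named as those with the largest called changes and a mean of at least 50 or, where fewer than 5 passed in a direction, as the 5 with the smallest p, in both cases with no overlap with DMSO, and as members of the lists, activity genes and cascade targets first. Naming from the paired Refametinib fit, and the choice of *Nab2* and *Prmt1* and of examples within lists, came after their values were seen. The CKIs, the lists and this rule were chosen with earlier results of these data known. Replicate numbers were taken to pair samples because deviations from group means correlated between same-numbered samples, by 0.184 to 0.456 for Refametinib with DMSO and 0.211 to 0.617 for GDC-0994. For Encorafenib the correlations ran from −0.093 to 0.355, a weaker ground for pairing. The block was still fitted on the replicate numbers of all groups, Encorafenib included. Which DMSO set was run beside which CKI is not given in the sources used here. Alternatives covered the pseudocount, the filter on low values, the scaling, the DMSO set, the samples in the fit, the block and each sample left out in turn. The block with the further scaling, and the block without Refametinib replicate 1 or without DMSO set 2 replicate 1, were chosen after seeing the data. Some genes of the lists are not reported here.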

Additional observations from a re-analysis of the deposited data

Results flagged for a closer look

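Of 68 sets of 6 DMSO values tested for a sample far from the others, 5 were marked, where chance marks about 1 in 20 such sets. The marked sample's gap to its nearest neighbour, as a share of the whole range, was 0.844 for *Rab5a* (630 in set 2 replicate 2), 0.798 for *Fbxw11* (2205 in set 2 replicate 2) and 0.692 for *Rffl* (819 in set 2 replicate 2). For *Cyp51* it was 0.712 (999, the lowest value, in set 2 replicate 1) and for *Ifnb1* 0.711 (262, the highest, in set 2 replicate 1).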

How the results depend on the processing

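The scaled values hide the read depth, and each CKI had 3 samples. Over 82 pairs of a named gene and a comparison, 1946 alternative values were computed, of which 0 reversed, 173 newly passed the threshold (38 of them with the replicate block and 28 without DMSO set 2 replicate 1) and 8 no longer passed it. These 8 all concern *Sertad2* with GDC-0994, whose adjusted p was 0.342 with DMSO set 1 alone, 0.262 with set 2 alone and 0.425 with only the groups compared, and 0.0727 to 0.457 in the 5 leave-outs. The causes were not tested.

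Without a filter on low values, 68 genes passed with Encorafenib, 156 with Refametinib, 113 with GDC-0994 and 1 with the 3 together. For Encorafenib the count was 2 with the replicate block and the mitochondrial share, 1 with the block and median-of-ratios scaling, 0 with the block alone, and 0 to 1 in leave-outs, where 1 came without Encorafenib replicate 2 or DMSO set 2 replicate 3. For Refametinib it was 3 with median-of-ratios scaling, 1588 with the block, 1636 with the block and that scaling, 2945 with the block and without DMSO set 2 replicate 1, and 0 to 1146 in leave-outs, where 1146 came without DMSO set 2 replicate 1.

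For GDC-0994 the count was 6 with the block and the mitochondrial share, and 0 with DMSO set 1 alone, with set 2 alone, with only the groups compared and with a log2 fold change of at least 1, and 0 to 1 in leave-outs. For the 3 together it was 1 with the block, 1 with the block and the mitochondrial share, and 72 with the block and without DMSO set 2 replicate 1. Single genes in the ERK pathway lists numbered 11 with the block, 12 with the block and median-of-ratios scaling, 18 with the block and without DMSO set 2 replicate 1, and 0 to 4 in leave-outs, where 4 came without DMSO set 2 replicate 1.

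The difference in mitochondrial share turned to 0.0282 for Encorafenib with DMSO set 1 alone. In leave-outs it ran from −0.160 to 0.0808 for Encorafenib and from −0.213 to 0.0241 for GDC-0994, with both highest values without DMSO set 2 replicate 1, and from 0.474 to 2.08 for Refametinib, without its replicates 1 and 3. The difference in totals was 89180 for Encorafenib and 81300 for GDC-0994 with DMSO set 1 alone. In leave-outs it ran from −237600 to 102900 for Encorafenib, with 85010 without DMSO set 2 replicate 1, and from −464300 to 227800 for GDC-0994, with 77140 without that sample. For Refametinib it was 1320000 with DMSO set 1 alone (p = 0.1) and 977100 with set 2 alone (p = 0.2), exact permutation tests for which 0.1 is the smallest p that 3 against 3 allow, and 922200 to 1316000 in leave-outs.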
